A study of Bos taurus with 18 samples.

Results

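The transcriptome of bovine dermal fibroblasts at 2 h of lipopolysaccharide (LPS) exposure was compared between cultures taken from the same animals at 16 and at 5 months of age. The comparison rests on 6 of the 18 libraries of the series, chosen by their labels as all those at 2 h, with 3 animals at each age. Both groups were skin fibroblasts of Holstein heifers, grown in culture, and both had received 100 ng/ml of LPS. The study tested how the innate response of these cells changes as an animal grows. Its methods describe cultures that were frozen at the fifth passage, revived and exposed side by side, from animals chosen because they responded at a middle level in an earlier screen. Per the labels, lysates of the wells of a culture were pooled, so that each library is the single sample of its animal and age. Every culture of the comparison had LPS, and the age of the animal cannot be told apart from the separate isolation, freezing and revival of each culture.

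LPS is a component of the outer membrane of gram-negative bacteria. It is bound by CD14 and by LY96 (MD-2) together with toll-like receptor 4 (TLR4), which signals through the adaptors MYD88 and TICAM1 to the transcription factor NF-kB. NF-kB then drives cytokine and chemokine genes within hours, along with genes of its own inhibitors, which end the response. Fibroblasts of the skin and udder are known to take part in this response by releasing chemokines that draw neutrophils and monocytes.

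Counts over gene windows summed to between 51495294 and 128698264 in the 2 h libraries. Levels are given as normalised CPM, the count of a gene scaled to a common library size and composition over the 6 libraries. The 16-month library of animal 3 stood apart from the other 17 libraries of the series. Its log2 CPM differed from the median of all libraries with a standard deviation (SD) of 1.59, against 0.309 to 0.479 in the others, and it correlated with the other 2 h libraries at r = 0.788 to 0.823, against 0.951 to 0.989 among those. Reads between genes made up 28.9% of its counts (16.9% to 25.4% in the others) and mitochondrial reads 1.32% (2.14% to 2.63%). Of 12856 genes, 51.6% were at least 2-fold away from the mean of the other 16-month libraries, with a median log2 difference of 0.87 in the shortest and -0.80 in the longest of 3 equal classes of gene window length. METAP1D was the extreme case on the high side, at 4194 normalised CPM against 102.4 to 388 in the other 2 h libraries. IFIT1, an interferon-induced gene, was among the lowest at 0.934 against 66.9 to 91.7. Counts of calls are therefore given over all 3 animals, without animal 3, and with weights for the reliability of each library, and the main genes are given with their level in every library.

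**Figure D1:**
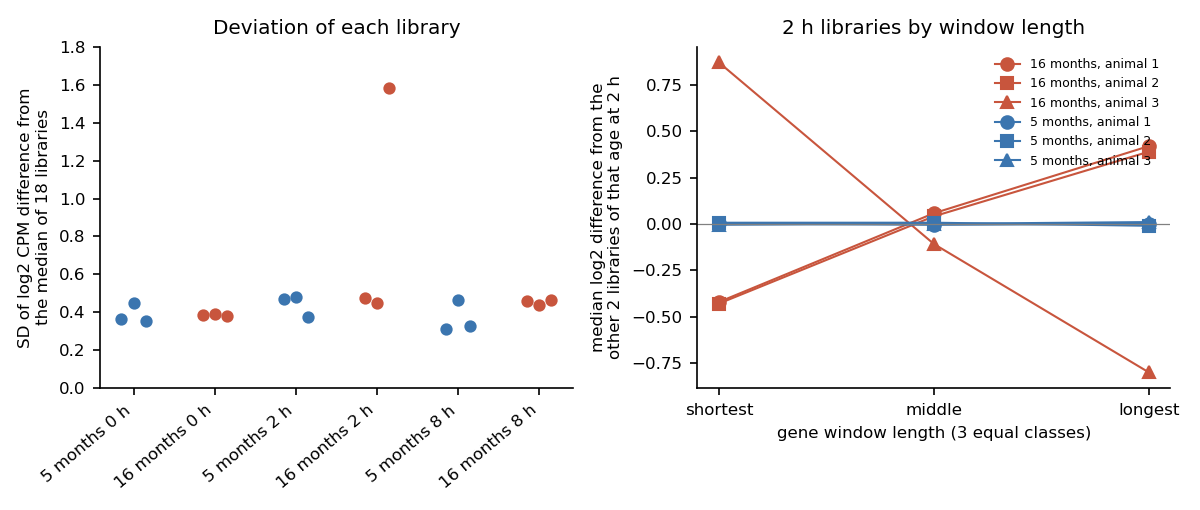
Left, SD of the log2 CPM difference of each library from the median of 18 libraries (y axis), by group (x axis, 3 libraries each). Right, median log2 difference of each 2 h library from the other 2 libraries of its age (y axis), by class of gene window length (x axis). The 16-month library of animal 3 reached an SD of 1.59 and ran from 0.87 in short to -0.80 in long windows, while the lines of the 5-month libraries stayed near 0. The opposite slopes of the other 16-month lines arise because the library of animal 3 is part of what they are compared with.

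The cultures carried fibroblast markers at 70215 to 113934 normalised CPM in sum at 5 months and 52197 to 74224 at 16 months (11 of 11 genes present). Markers of other cell types were low. The 9 keratinocyte genes summed to 0.665 to 0.753 normalised CPM at 5 months and 1.67 to 2.03 at 16 months, with KRT1 and EPCAM at 0 reads throughout. Macrophage genes, 8 of a list of 9, summed to 2.29 to 2.70 and 2.81 to 6.25 with TYROBP at 0, T cell genes (6 of 6) to 1.14 to 2.00 and 0.712 to 1.59 with CD2 at 0, and endothelial genes (8 of 8) to 1.92 to 2.01 and 1.96 to 3.67 with CLDN5 at 0. Smooth muscle and pericyte genes (8 of 8), which cultured fibroblasts also express, summed to 7180 to 10280.0 and 5836 to 14541. The keratinocyte and macrophage sums were higher at 16 months in all libraries, and their part in the results was not tested. In such bulk samples, fewer cells of a type and less RNA per cell cannot be told apart.

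A gene is called higher or lower when its p from edgeR's quasi-likelihood test, adjusted by the Benjamini-Hochberg method (BH), falls below 0.05 and the difference reaches 2-fold, with the animal as block. Over all 3 animals, 0 of 12856 genes were called (0%), with a smallest adjusted p of 0.341. At an unadjusted p under 0.05, 432 genes (3.36%) were higher and 234 (1.82%) lower at 16 months, where 162 (1.26%) were higher and 56 (0.436%) lower by the likelihood-ratio test, and DESeq2 called 224 in all. Without animal 3, 388 of 12965 genes (2.99%) were called, 300 of them (2.31%) higher and 88 (0.679%) lower, at a median log2 fold change of 1.56 in the genes called higher and -1.39 in those called lower. Of the genes tested, 170 reached the minimum of 1 CPM only in 16-month libraries, and 41 of them were called higher. Another 39 reached it only in 5-month libraries, and 6 of them were called lower. Of the remaining 12756 genes, 259 (2.03%) were called higher and 82 lower. The 388 calls depend on the pairing by animal, which comes from the labels. Without the block, the same 4 libraries gave 0 calls by edgeR's quasi-likelihood test, although 1706 genes had an unadjusted p under 0.05. The smallest adjusted p was 0.0578. With library weights, limma's voom test called 575 of 12856 genes (4.47%), 422 higher (3.28%) and 153 lower (1.19%), and 373 of the 388 were among them in the same direction. The weights left animal 3 almost out of that fit, at 0.0767 and 0.0652 for its libraries against 3.59 to 3.90 for the other 4. Adjusted p-values and log2 fold changes below are those of animals 1 and 2 from edgeR's quasi-likelihood test (BH) unless stated. Values after ± are standard errors (SE), and a rise or fall "by" a value is on the log2 scale. With 4 libraries, the spread of a single gene is poorly known. SEs and p-values thus rest largely on a spread estimated over all genes, and they cover these animals only.

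Animal 3 gives values that the calls did not use. Of the 300 genes called higher, 245 (81.7%) were also higher in the 16-month culture of animal 3 and 173 (57.7%) by at least 2-fold. Of the 88 genes called lower, 80 (90.9%) were lower and 64 (72.7%) by at least 2-fold. Among tested genes that were not called, the direction of animals 1 and 2 was kept in 55.4% of those higher and 58.3% of those lower. By at least 2-fold it was kept in 29.8% and 34.1%. Including animal 3 moved the fold of some called genes described below by more than 1.5 times. The log2 fold change over all 3 animals was larger for CCL20 (4.21), CCL5 (3.45), IER3 (2.37), EYA4 (-4.77) and CD200R1L (-4.49). It was smaller for COL8A1 (3.52), PTGS2 (2.50), FEZ1 (-1.97), CSF1 (0.89), TOP2A (0.71) and NR4A2 (0.29). With library weights, 8 chemokines, 9 NF-kB genes, 5 cytokines, 7 effector genes and 21 proliferation genes of the lists described below were called higher and 0 lower. Over all 3 animals, edgeR's quasi-likelihood test called none of them, the likelihood-ratio test called 7, 3, 2, 5 and 8 and DESeq2 7, 1, 2, 5 and 8. The median log2 fold changes of these lists were then 2.52, 1.16, 1.18, 1.18 and 0.98 in that order, against 0.01 over all genes. Gene windows had a median length of 20342 bases over all tested genes. The median was shorter for chemokines (4169), NF-kB genes (14520), cytokines (10981), effectors (11438) and proliferation genes (13655), and longer for matrix genes (55181). The part of window length in the values of animal 3 was not tested.

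**Figure D2:**
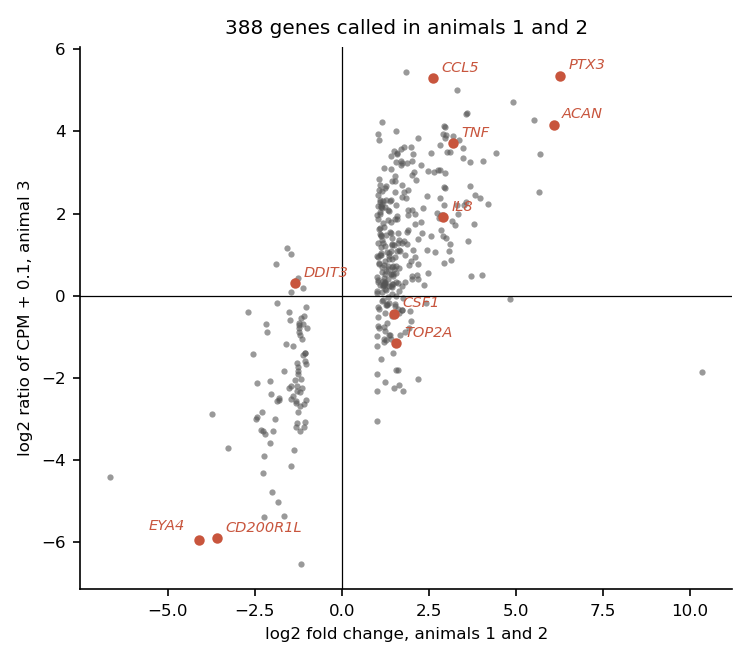
Each point is a gene of the 388 called in animals 1 and 2, with its log2 fold change there (x axis) and the log2 ratio of 16 over 5 months in animal 3, computed on normalised CPM + 0.1 (y axis). Most points lie in the upper right and lower left, with 245 of 300 higher genes and 80 of 88 lower genes keeping their direction. CSF1, TOP2A and DDIT3 are labelled examples that did not.

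Chemokines are the secreted proteins that attract leukocytes. Of 21 in the files, 10 had enough reads for a test, of which 8 were called higher at 16 months and 0 lower (2.31% and 0.679% over all tested genes), with a median log2 fold change of 2.36 against -0.00 over all genes. CX3CL1 and CCL20 reached the minimum of 1 CPM only in 16-month libraries and so entered the test through the age where they were high. Of the other 8, 6 were called, with a median of 2.07. In 6 of the 10 the 16-month libraries were all higher than the 5-month libraries, as for 11.9% of all 12856 tested genes, where 12.5% were all lower. IL8, which draws neutrophils (chromosome 6, 90559882 to 90563647, UMD 3.1 assembly, plus strand), had 17.3, 8.45 and 8.74 normalised CPM at 5 months and 133, 62.2 and 33.4 at 16 months (animals 1, 2 and 3 in that order here and below). Every 16-month culture was above every 5-month culture, with a log2 fold change of 2.91 ± 0.075, adjusted p = 0.00779. Over all 3 animals it was 2.59 ± 0.34 (edgeR's quasi-likelihood test, unadjusted p = 0.00111). CCL20, a ligand of CCR6 that draws dendritic cells and lymphocytes (chromosome 2, 116759408 to 116762490, plus strand), had 0.707, 0.317 and 0.05 normalised CPM at 5 months and 8.56, 2.56 and 4.7 at 16 months. The ages did not overlap, and the log2 fold change was 3.31 ± 0.25, adjusted p = 0.0159. CX3CL1, a membrane-bound chemokine, stood at 0.856, 0.515 and 0.765 normalised CPM at 5 months and 10.9, 5.04 and 10.4 at 16 months. Its log2 fold change of 3.48 ± 0.19 (adjusted p = 0.0108) was the highest of the list, and its 16-month level was the higher in each animal.

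Chemokines for monocytes and T cells rose as well. CCL2, the main monocyte attractant, had 160.4, 28.3 and 115 normalised CPM at 5 months and 813, 283 and 962 at 16 months, a log2 fold change of 2.83 ± 0.27, adjusted p = 0.0202. The ages lay apart, although the 5-month culture of animal 2 was far below the other 5-month cultures. CCL5, which draws T cells, had 12.1, 5.25 and 7.96 normalised CPM at 5 months and 80.3, 29.5 and 316 at 16 months (2.61 ± 0.086, adjusted p = 0.00779), and the 16-month library of animal 3 was the highest by a wide margin. CXCL2, a neutrophil attractant whose window overlaps another gene, had 107, 53.9 and 63.2 normalised CPM at 5 months and 527, 207 and 443 at 16 months (2.12 ± 0.11, adjusted p = 0.0108). CXCL6 rose in animals 1 and 2 (1.31 ± 0.073, adjusted p = 0.0108) and stood at 89.2 and 76.3 normalised CPM at 5 and 16 months in animal 3, so its groups overlapped. CCL26, an eosinophil attractant, rose from a low level in animals 1 and 2 (2.01 ± 0.22, adjusted p = 0.0264), with 1.67, 0.535 and 2.69 normalised CPM at 5 months and 5.95, 2.48 and 26.9 at 16 months, so its groups overlapped and the 16-month library of animal 3 stood alone. CXCL16 had a log2 difference of 0.70 ± 0.12, which did not pass the test (adjusted p = 0.0635).

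**Figure D3:**
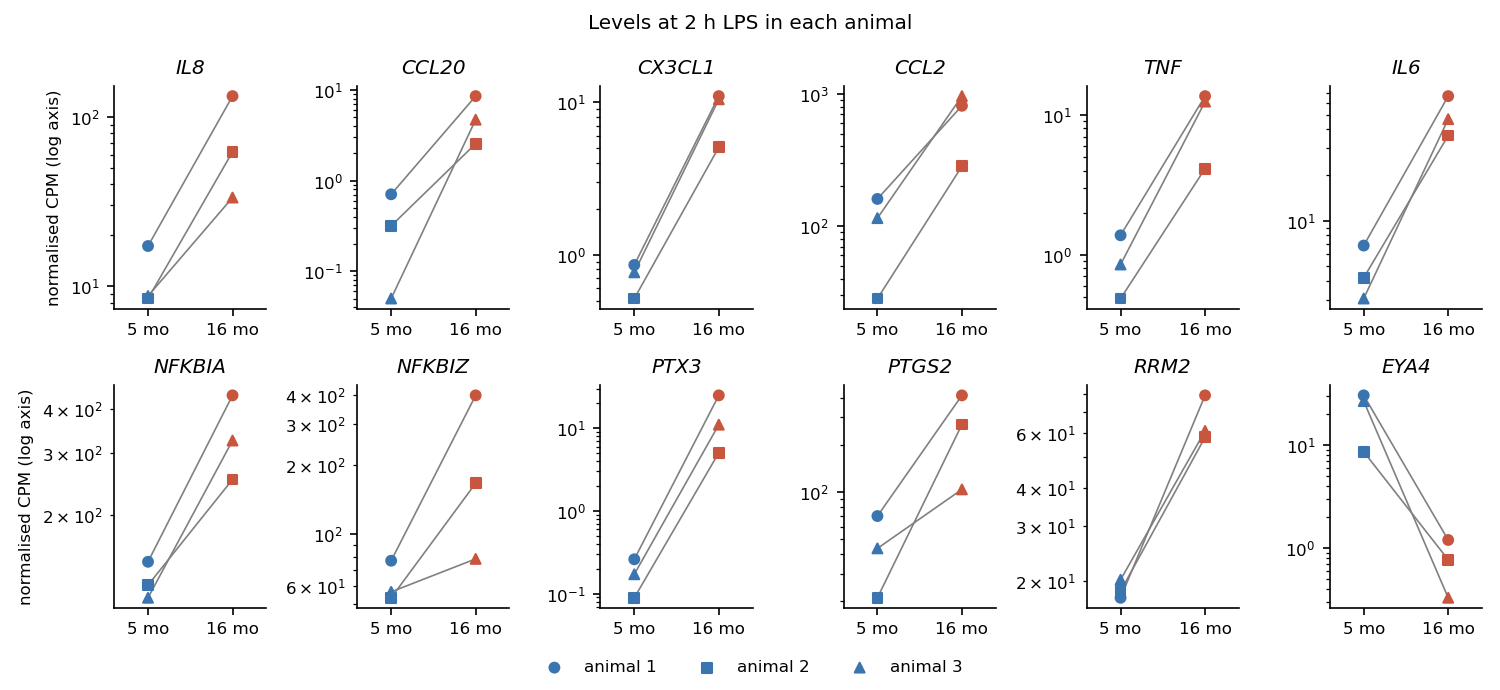
Normalised CPM (y axes, log scale, each with its own range) of 12 genes at 5 and 16 months (x axes) at 2 h of LPS, with a line for each animal. IL8, CCL20, CX3CL1, CCL2, TNF, IL6, NFKBIA, NFKBIZ, PTX3 and RRM2 were higher at 16 months in 3 of 3 animals, as was PTGS2, and EYA4 was lower in 3 of 3.

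Of 20 cytokines in the files 11 were tested, of which 5 were called higher and 0 lower (2.31% and 0.679% over all tested genes), with a median log2 fold change of 0.84. TNF, the early pro-inflammatory cytokine (chromosome 23, 27533901 to 27536674, minus strand, in a window that overlaps LOC100847561), had 1.38, 0.486 and 0.851 normalised CPM at 5 months and 13.6, 4.13 and 12.4 at 16 months. The 16-month cultures were all above the 5-month cultures, with a log2 fold change of 3.20 ± 0.16, adjusted p = 0.0101, and 3.42 ± 0.34 over all 3 animals (edgeR's quasi-likelihood test, unadjusted p = 0.000348). IL6, which drives the acute phase response, had 6.84, 4.19 and 3.06 normalised CPM at 5 months and 66.4, 36.4 and 46.8 at 16 months and rose by 3.20 ± 0.077, adjusted p = 0.00779. Its ages lay apart too. LIF, a cytokine of the IL6 family, had 29.4, 21.4 and 23.2 normalised CPM at 5 months and 84.5, 81 and 27.3 at 16 months (1.72 ± 0.12, adjusted p = 0.0143), and animal 3 differed little. CSF1, the growth factor of macrophages, rose in animals 1 and 2 (1.51 ± 0.093, adjusted p = 0.0118) but was at 25 and 18.5 normalised CPM at 5 and 16 months in animal 3. IL1A rose by 1.23 ± 0.17, adjusted p = 0.0423. IL33, an alarmin held in the nucleus, had a difference in the other direction that did not pass the test (-0.82 ± 0.31, adjusted p = 0.246).

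Of 14 tested genes of LPS recognition, edgeR's quasi-likelihood test called 0 without animal 3, against 2.31% higher and 0.679% lower over all tested genes. In that test 6 of the 14 had an unadjusted p under 0.05, as had 2820 of all 12965 tested genes. The likelihood-ratio test called 1, DESeq2 1 and the fit with library weights 1. The median log2 fold change was 0.27, and 13 of the 14 were above 0, as were 49.6% of all tested genes. In animal 3, 5 of 13 genes were higher at 16 months, with a median log2 ratio of -0.33. Over all 3 animals the median log2 fold change was 0.07. TLR4 and TLR2 entered the test only through 16-month libraries. TLR4 itself had 0.707, 0.991 and 0.908 normalised CPM at 5 months and 3.51, 1.45 and 0.981 at 16 months, a low level at which the log2 difference of 1.39 ± 0.50 did not pass the test (adjusted p = 0.227). The 16-month values were higher in each animal, but animal 3 hardly differed. CD14, the LPS coreceptor, was below the level needed for a test, with 0.13, 0.119 and 0.186 normalised CPM at 5 months and 0.648, 0.526 and 1.63 at 16 months, and every 16-month library was above every 5-month library. LY96, which completes the receptor, was at 16.4, 16.1 and 15.6 normalised CPM at 5 months and 16.2, 16.6 and 50.3 at 16 months, with a log2 difference of 0.01 ± 0.080 in animals 1 and 2 (adjusted p = 0.966), and the 16-month library of animal 3 stood alone. TLR2, a receptor of bacterial lipopeptides, had 0.353, 0.456 and 0.686 normalised CPM at 5 months and 2.59, 1.48 and 2.17 at 16 months, and its difference did not pass the test (2.24 ± 0.39, adjusted p = 0.062) but was called with library weights and, over all 3 animals, by the likelihood-ratio test and DESeq2. TICAM1, the adaptor towards interferon genes, had 20.6, 16.4 and 16.7 normalised CPM at 5 months and 39.9, 30.2 and 29.7 at 16 months, with a log2 difference of 0.92 ± 0.063 (adjusted p = 0.0135) that was under 2-fold.

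Of 17 tested NF-kB subunits and regulators, 8 were called higher and 0 lower (2.31% and 0.679% over all tested genes), with a median log2 fold change of 1.01. In 12 of the 17 the 16-month libraries were all above the 5-month libraries, as in 11.9% of all tested genes. NFKBIZ, a nuclear cofactor needed for IL6-type targets, had 76.9, 53.2 and 56.4 normalised CPM at 5 months and 399.9, 167 and 78.3 at 16 months (2.01 ± 0.20, adjusted p = 0.0217). Animal 3 differed least, but the ages did not overlap. NFKBIA, the inhibitor that returns NF-kB to the cytoplasm, had 147, 127 and 117 normalised CPM at 5 months and 437, 252 and 325 at 16 months (1.28 ± 0.16, adjusted p = 0.033). TNIP1, a partner of the ubiquitin editor TNFAIP3, had 76.7, 59.5 and 60.9 normalised CPM at 5 months and 263, 188 and 572 at 16 months (1.72 ± 0.075, adjusted p = 0.0101), again with the ages apart. BIRC3, a ubiquitin ligase of TNF receptor signalling, rose by 1.56 ± 0.070, adjusted p = 0.0101, and the subunit genes NFKB1 by 1.31 ± 0.11, adjusted p = 0.0172, NFKB2 by 1.09 ± 0.074, adjusted p = 0.0135 and RELB by 1.01 ± 0.14, adjusted p = 0.04. NFKBIE, a further inhibitor, rose by 1.11 ± 0.075, adjusted p = 0.0135. TNFAIP3 had 27.7, 25.7 and 18.1 normalised CPM at 5 months and 112, 53.6 and 11.5 at 16 months, where animals 1 and 2 differed by 1.53 ± 0.25 (adjusted p = 0.0561) and animal 3 went the other way. It was called with library weights. RELA, the subunit that pairs with NFKB1, had a log2 difference of 0.26 ± 0.071 (adjusted p = 0.141).

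Effectors of the innate response were higher as well. Of 13 tested genes of the acute phase, complement, adhesion and effector enzymes, 7 were called higher and 0 lower, where 2.31% and 0.679% of all tested genes were (median 1.07). PTX3 entered the test only through its 16-month libraries, and of the other 12, 6 were called. PTX3, a secreted pattern recognition protein of fibroblasts (chromosome 1, 111027803 to 111033868, minus strand, in a window inside that of VEPH1), had the highest log2 fold change of the called genes in the list, with 0.26, 0.0892 and 0.172 normalised CPM at 5 months and 24.9, 5.04 and 11 at 16 months. The 16-month cultures were far above the 5-month cultures in each animal, with a log2 fold change of 6.28 ± 0.22, adjusted p = 0.00779, and 6.13 ± 0.38 over all 3 animals (edgeR's quasi-likelihood test, unadjusted p = 4.34e-05). PTGS2, the inducible cyclooxygenase of prostaglandin synthesis, had 70.2, 21.1 and 43.6 normalised CPM at 5 months and 414, 269.6 and 104 at 16 months (3.12 ± 0.31, adjusted p = 0.0217). Its ages lay apart, and PTGES, the next enzyme towards prostaglandin E2, rose by 1.07 ± 0.15, adjusted p = 0.0413. CFB, a protease component of the alternative complement pathway, had 5.78, 0.902 and 2.64 normalised CPM at 5 months and 34.5, 9.71 and 47.5 at 16 months (2.95 ± 0.24, adjusted p = 0.0169). CD83 and CD40, surface proteins of activated antigen-presenting cells, rose by 2.96 ± 0.15 and 1.85 ± 0.091 (adjusted p = 0.0101 and 0.0101). SAA3, an acute phase serum amyloid, was near the limit of detection. Its reads numbered 1, 0 and 0 at 5 months and 84, 46 and 219 at 16 months. Over all 3 animals this is a ratio of 361 with an exact 95% interval of 64.3 to 14295, which covers counting error only. Without animal 3 the ratio was 90.7, with an interval of 16 to 3609.5.

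Of 22 tested genes of the type I interferon response, 1 was called higher, where 2.31% of all tested genes were. This was the transcription factor IRF1, with 79.1, 50.4 and 56.5 normalised CPM at 5 months and 256, 145 and 138 at 16 months (1.61 ± 0.082, adjusted p = 0.0101, overlapping window). The likelihood-ratio test called 3 and the fit with library weights 3. The median of the list was 0.05. OAS1, an antiviral enzyme that senses double-stranded RNA, had a log2 difference of 1.10 ± 0.23 (adjusted p = 0.0875) and CMPK2 of 1.03 ± 0.26 (adjusted p = 0.122). Neither passed this test, and both were called with library weights.

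Immediate early genes respond within minutes to stimuli of many kinds. Of 30 tested, 2 were called higher and 1 lower (2.31% and 0.679% over all tested genes), with a median of -0.05. IER3, which is also a target of NF-kB, had 226, 146 and 159 normalised CPM at 5 months and 772, 498 and 1962 at 16 months (1.77 ± 0.066, adjusted p = 0.00779, overlapping window). NR4A2, an orphan nuclear receptor, rose in animals 1 and 2 (1.13 ± 0.17, adjusted p = 0.0453) and was at 4.31 and 1.41 normalised CPM in animal 3. FOS, a subunit of the AP-1 transcription factor, had 27.3, 41 and 34.8 normalised CPM at 5 months and 12.8, 16.6 and 6.77 at 16 months and was lower at 16 months in all libraries (-1.20 ± 0.082, adjusted p = 0.0135). ARC was below the fold threshold at -0.94 ± 0.13 (adjusted p = 0.04) and JUNB, another AP-1 subunit, at 0.57 ± 0.075 (adjusted p = 0.0373). Of 25 genes of the heat shock and unfolded protein response, 1 was called, and it was lower: DDIT3 (CHOP), the stress-induced transcription factor, with 31.4, 35.5 and 29.7 normalised CPM at 5 months and 14.1, 12.4 and 36.8 at 16 months (-1.34 ± 0.11, adjusted p = 0.0172). Animal 3 did not share this difference. TRIB3, a target of DDIT3, had a log2 difference of -0.75 ± 0.071 (adjusted p = 0.0202), under 2-fold.

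Of 29 tested proliferation genes, 20 were called higher and 0 lower (2.31% and 0.679% over all tested genes), with a median log2 fold change of 1.21. The difference was above 0 in 28 of 29, and in 49.6% of all tested genes. RRM2, the small subunit of the enzyme that makes deoxyribonucleotides, had 17.7, 18.5 and 20.2 normalised CPM at 5 months and 79.3, 58.1 and 60.9 at 16 months (1.90 ± 0.15, adjusted p = 0.0161), with the ages apart. MCM5, part of the replicative helicase, had 8.04, 8.76 and 9.68 normalised CPM at 5 months and 31.3, 24.4 and 89.1 at 16 months (1.71 ± 0.14, adjusted p = 0.0172). CCNB1, the cyclin of entry into mitosis, had 11.9, 11.3 and 14.9 normalised CPM at 5 months and 35.9, 25.8 and 44.2 at 16 months (1.39 ± 0.12, adjusted p = 0.0193). These 3 genes were higher at 16 months in each animal. MKI67, the marker of cycling cells, rose in animals 1 and 2 (1.52 ± 0.071, adjusted p = 0.0101) and had 28.4, 21 and 32.8 normalised CPM at 5 months and 84, 58.6 and 28.6 at 16 months. TOP2A, the topoisomerase of mitosis, rose likewise (1.56 ± 0.089, adjusted p = 0.0108) and had 26.7, 21.9 and 38 normalised CPM at 5 months and 85.3, 59.5 and 17.1 at 16 months. In animal 3 both were lower at 16 months. Of the 29 genes, 28 were higher at 16 months in animal 1, 26 in animal 2 and 18 in animal 3. Over the 29 genes, the median log2 ratio was 1.31 in animal 1, 1.12 in animal 2 and 0.96 in animal 3. The cultures of the ages thus differed in cell cycle genes at the same sampling time as in inflammatory genes, and the part of either in the other was not tested.

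Of 10 tested genes of DNA methylation, 1 was called higher, where 2.31% of all tested genes were. This was UHRF1 (chromosome 7, 20436669 to 20469912, minus strand), which recruits the maintenance methyltransferase to replicating DNA and whose window overlaps another gene, with 7.2, 5.05 and 7.28 normalised CPM at 5 months and 26.7, 18 and 21.4 at 16 months (1.86 ± 0.089, adjusted p = 0.0101). DNMT1, that methyltransferase, had 14.4, 13.6 and 14.4 normalised CPM at 5 months and 21.9, 19.3 and 22.6 at 16 months, a log2 difference of 0.56 ± 0.080 (adjusted p = 0.0434) that was under 2-fold, with the ages apart. DNMT3A, a de novo methyltransferase, was below the level needed for a test, at 0.837, 0.714 and 0.629 normalised CPM at 5 months and 0.461, 0.702 and 1.08 at 16 months, and its groups overlapped. DNMT3B was not analysed here. The list's median was 0.01.

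Of 33 tested matrix genes, 4 were called higher and 1 lower (2.31% and 0.679% over all tested genes), with a median of -0.17. ACAN, the large proteoglycan of cartilage (chromosome 21, 20800158 to 20868837, plus strand), rose most, with 1.08, 0.159 and 1.25 normalised CPM at 5 months and 53, 19.6 and 24.1 at 16 months (6.08 ± 0.30, adjusted p = 0.0101). COL8A1, a short-chain collagen of vessel and corneal basement membranes, had 1.25, 1.36 and 1.51 normalised CPM at 5 months and 14.7, 34.9 and 7.45 at 16 months (4.19 ± 0.31, adjusted p = 0.0153). COL15A1 and COL18A1, collagens near basement membranes, rose by 2.15 ± 0.071 and 1.16 ± 0.12 (adjusted p = 0.00779 and 0.0225). COL4A2, a chain of the basement membrane network, fell, with 622, 1124 and 627 normalised CPM at 5 months and 355, 486 and 361 at 16 months (-1.01 ± 0.12, adjusted p = 0.0302). ELN, the precursor of elastic fibres, had 86.4, 351 and 137 normalised CPM at 5 months and 754, 943 and 778 at 16 months, and POSTN, a matrix protein of wound repair, had 187, 500.0 and 144 normalised CPM at 5 months and 15, 153 and 7.74 at 16 months. The ages lay apart for ELN, and POSTN was lower in each animal, but neither passed the test (ELN 2.27 ± 0.46, adjusted p = 0.0805, and POSTN -2.66 ± 0.53, adjusted p = 0.0783). Both were called with library weights and, over all 3 animals, by the likelihood-ratio test and DESeq2. COL1A1, the main collagen of dermis, had 25863, 38579 and 6999.8 normalised CPM at 5 months and 18891, 6517 and 5993 at 16 months, with overlapping groups (-1.51 ± 0.57, adjusted p = 0.242), and was called lower with library weights. It varied widely within single cultures, with 10600.0, 42000.0 and 41800.0 CPM (scaled over all 18 libraries and rounded to 3 digits) at 0, 2 and 8 h in animal 2 at 5 months and 25000.0, 7050.0 and 7480.0 at 16 months.

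**Figure D4:**
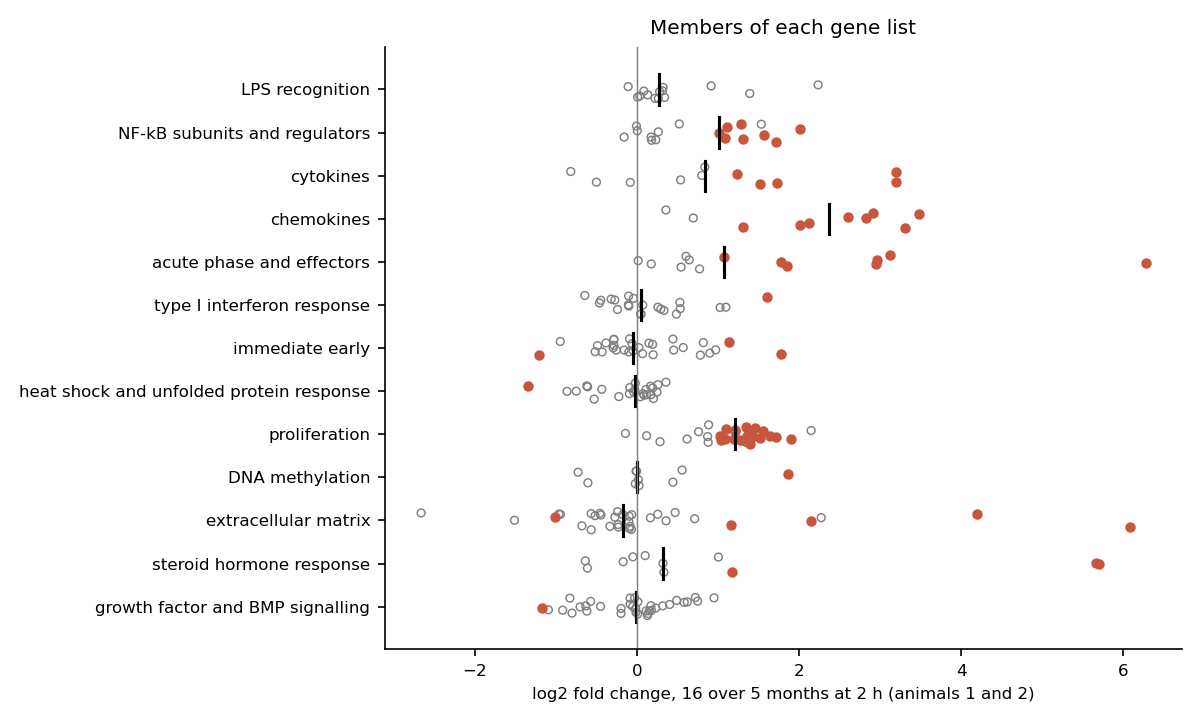
Log2 fold change of 16 over 5 months at 2 h in animals 1 and 2 (x axis) for the tested members of 13 gene lists (y axis). Filled points are called genes, open points are not called, black bars are list medians and the grey line is the median of all tested genes. Chemokines (median 2.36), proliferation genes (median 1.21), effectors (median 1.07) and NF-kB genes (median 1.01) lie mostly to the right. The medians of LPS recognition (0.27), interferon (0.05) and immediate early genes (-0.05) are closer to 0.

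Genes that answer to steroid hormones gave 3 calls, all higher, among 11 tested (2.31% over all tested genes were called higher and 0.679% lower, here and for the next lists). NPY1R, a receptor of neuropeptide Y, had 0, 0.0694 and 0.0286 normalised CPM at 5 months and 2.78, 1.96 and 1.3 at 16 months (5.69 ± 0.76, adjusted p = 0.0383). GREB1, a known target of the estrogen receptor, had 0.0186, 0.169 and 0.136 normalised CPM at 5 months and 7.33, 4.49 and 1.27 at 16 months (5.66 ± 0.68, adjusted p = 0.0314). Both were close to undetected at 5 months and above it in all 16-month cultures, and they entered the test only through the 16-month libraries. Of the other 9 genes of the list, 1 was called. FKBP5, a chaperone induced by glucocorticoids, had 8.67, 8.6 and 7.9 normalised CPM at 5 months and 22, 17.3 and 10.1 at 16 months (1.17 ± 0.12, adjusted p = 0.0229). Over all 3 animals, NPY1R and GREB1 were not tested, and the likelihood-ratio test and DESeq2 called 0 of the other 9. With library weights 1 of the 9 was called. The list median over all 3 animals was -0.27 (9 genes), against 0.32 without animal 3 (11 genes). Of 35 genes of growth factor and BMP signalling, 1 was called and it was lower, WNT2 (-1.17 ± 0.12, adjusted p = 0.0233), a ligand of the WNT pathway. Of 34 positional and developmental transcription factors, MEOX2 was called higher (1.53 ± 0.20, adjusted p = 0.0378) and EYA4 lower. Of 19 tested HOX genes, 4 had an unadjusted p under 0.05 by edgeR's quasi-likelihood test, as had 2820 of all 12965 tested genes. Of the 19, 0 were called by that test, 0 by DESeq2 and 1 by the likelihood-ratio test. The lowest adjusted p among them was that of HOXA11, at 1.1, 1.39 and 1.14 normalised CPM at 5 months and 0.402, 0.61 and 0.411 at 16 months (adjusted p = 0.0805), which was called lower with library weights.

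Taking called genes whose mean CPM exceeded 1 and whose direction was shared by 3 of 3 animals, the largest rises were PTX3, ACAN, NPY1R, GREB1, NTS, DTX4, TBX2 and COL8A1. NTS, the precursor of neurotensin, had 0.13, 0.159 and 0.507 normalised CPM at 5 months and 6.58, 7.04 and 11.7 at 16 months (5.53 ± 0.23, adjusted p = 0.00982). DTX4, a ubiquitin ligase of the Deltex family tied to NOTCH signalling, had 0.409, 0.159 and 0.193 normalised CPM at 5 months and 7.64, 8.03 and 7.64 at 16 months (4.92 ± 0.40, adjusted p = 0.0169), and TBX2, a T-box repressor that acts against senescence, had 0.335, 0.129 and 0.622 normalised CPM at 5 months and 4.05, 5.04 and 7.88 at 16 months (4.42 ± 0.49, adjusted p = 0.0261). These 3 genes reached 1 CPM only in 16-month libraries and so entered the test through the age where they were high. In all 3 the ages lay apart, as in 230 of the 300 genes called higher, which the choice of large rises favours.

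Under the same conditions, the largest falls were EYA4, LOC784924, CD200R1L, LOC100848767, FEZ1, ATP6AP1L, MEGF6 and PGM5. EYA4, a transcriptional coactivator of organ development (chromosome 9, 72417015 to 72736957, plus strand), had 30.4, 8.64 and 26.7 normalised CPM at 5 months and 1.21, 0.777 and 0.332 at 16 months (-4.10 ± 0.33, adjusted p = 0.0169). CD200R1L, a relative of the inhibitory receptor of CD200, had 10.4, 15.9 and 11.5 normalised CPM at 5 months and 1.4, 0.81 and 0.0949 at 16 months (-3.58 ± 0.39, adjusted p = 0.0253). MEGF6, a protein of EGF-like repeats whose window overlaps a microRNA gene, had 30.3, 29.2 and 23.9 normalised CPM at 5 months and 5.53, 5.29 and 2.91 at 16 months (-2.46 ± 0.081, adjusted p = 0.00779). These 3 genes were lower in every 16-month culture than in any 5-month culture, as were 74 of the 88 genes called lower, which the choice of large falls favours. PGM5, a protein of cell adhesion sites related to phosphoglucomutase, fell with a log2 fold change of -2.43 ± 0.14, adjusted p = 0.0108. ATP6AP1L (-2.55 ± 0.24, adjusted p = 0.02) and FEZ1, an adaptor of kinesin transport (-2.70 ± 0.19, adjusted p = 0.0145), fell as well. The uncharacterised LOC784924 (-3.72 ± 0.25, adjusted p = 0.0135) and LOC100848767 (-3.26 ± 0.38, adjusted p = 0.0293) lie in overlapping windows. Both reached 1 CPM only in 5-month libraries and so entered the test through the age where they were high. A pair of genes chosen after their values were seen lay at the ends of the range. RSPO1, an enhancer of WNT signalling, had 52, 197 and 381 reads at 5 months and 1, 2 and 2 reads at 16 months, a mean below 1 CPM. In animals 1 and 2 its level at 5 months was 119 times that at 16 months, with an exact 95% interval of 40.2 to 581 for counting error only (adjusted p = 0.0118). LOC785277 had 0, 0 and 109 reads at 5 months and 231, 174 and 9 at 16 months, so animal 3 went against animals 1 and 2.

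The same cultures were also sampled before LPS and at 8 h, in other libraries, which gives values to set beside those at 2 h. At 0 h, 525 of 12984 genes (4.04%) passed with all 3 animals, 2.73% higher and 1.31% lower, and at 8 h 644 of 13055 (4.93%), 3.33% higher and 1.6% lower. Of the 300 genes higher at 2 h, 208 were also called higher at 0 h (69.3% of the 2 h calls and 58.6% of the 355 higher calls at 0 h), and 219 at 8 h (73% and 50.3% of 435). Of the 88 lower genes, 66 were called lower at 0 h (75% and 38.8% of 170) and 65 at 8 h (73.9% and 31.1% of 209). Of the 300 genes, 273 were tested at 0 h and 287 at 8 h, and of the 88, 87 and 86. The calls at 2 h that were not called at either other time numbered 59 higher genes and 15 lower genes. Among the higher were TNF and CD83, which were tested at neither time, and CXCL2, NFKBIZ, IRF1, BIRC3, NFKB1 and NFKBIA, which had adjusted p-values under 0.05 at 8 h (CXCL2 also at 0 h) with differences under 2-fold. DDIT3, among the lower, was likewise under 2-fold with adjusted p-values under 0.05 at both times. A further 33 higher genes were called at 2 and 8 h and not at 0 h. Of these, PTX3, CCL20, IL6 and IL8 were too low to be tested at 0 h, while PTGS2, CFB and CCL5 were tested there and had log2 differences of 0.53, 0.80 and 0.66, all under 2-fold.

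In animals 1 and 2, proliferation genes had a median log2 age difference of 1.34 at 0 h, 1.21 at 2 h and 1.28 at 8 h. With all 3 animals, 23 of the 29 were already called higher at 0 h, where 2.73% of all tested genes were. UHRF1 had 1.73, 1.86 and 1.74 at these times in animals 1 and 2, EYA4 -3.85, -4.10 and -4.23, and ACAN 6.29, 6.08 and 4.51. In the same animals the median of 17 NF-kB genes (16 at 0 h) was 0.16, 1.01 and 0.43. NFKBIZ had 0.19, 2.01 and 0.68, and IRF1 -0.06, 1.61 and 0.44. With animal 3 included, NFKBIZ stood at 1.51 at 2 h. The interferon list had a median of 0.05 at 2 h and 1.00 at 8 h in animals 1 and 2 (22 and 29 tested genes). At 8 h, 8 of the 29 were called higher in animals 1 and 2, against 350 of 13120 over all genes. With all 3 animals 14 of the 29 were called higher, against 3.33% over all genes. For OAS1 the log2 difference in animals 1 and 2 was 3.36 at 8 h against 1.10 at 2 h. TNF had 0.0258, 0.0159 and 0.0192 CPM (scaled over all 18 libraries) at 8 h in the 5-month cultures and 0.0592, 0.0226 and 0.0138 in the 16-month cultures, below the level needed for a test.

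Whether the age difference at 2 h was larger than that at 0 h was tested as an age-by-time interaction. With all 3 animals, 0 of 12859 genes passed (edgeR's quasi-likelihood test, 168 at an unadjusted p under 0.05), with 7 by the likelihood-ratio test and 14 by DESeq2. Without animal 3, 1 of 12938 genes (0.00773%) passed, SH3GLB1, a membrane-shaping protein of apoptosis and autophagy, and the likelihood-ratio test passed 63. For SH3GLB1 the log2 difference was 2.71 ± 0.060, adjusted p = 0.000526. Its levels were low in some libraries of both ages and high in others: 8.21, 63 and 60.0 CPM at 0 h and 10.2, 78.5 and 66.1 at 2 h in the 5-month cultures, and 8.76, 9.28 and 60.7 and 73, 73.6 and 37.6 in the 16-month cultures. IL8 had a log2 difference of 2.49 ± 0.19, adjusted p = 0.137, and CXCL2 of 1.41 ± 0.16, adjusted p = 0.235. The nearest to the threshold was MIDN, a nuclear protein that guides short-lived proteins to the proteasome, with -1.02 ± 0.060, adjusted p = 0.0508. MIDN stood at 16, 15.1 and 16.9 CPM at 0 h and 74.8, 70.0 and 86.3 at 2 h in the 5-month cultures, and at 16.1, 17.1 and 16.9 and 35.9, 40.6 and 31.1 in the 16-month cultures. The ages lay apart at 2 h in all 3 animals, and the log2 difference was -0.92 ± 0.097 in animals 1 and 2 (adjusted p = 0.0241), under 2-fold, and -1.10 ± 0.27 over all 3 animals (edgeR's quasi-likelihood test, unadjusted p = 0.0131). For the inflammatory genes called at 2 h and not at 0 h, a larger age difference than at 0 h was thus not shown by this test, which CCL20, CX3CL1, TNF and PTX3 did not enter because too few of its libraries reached 1 CPM.

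**Figure D5:**
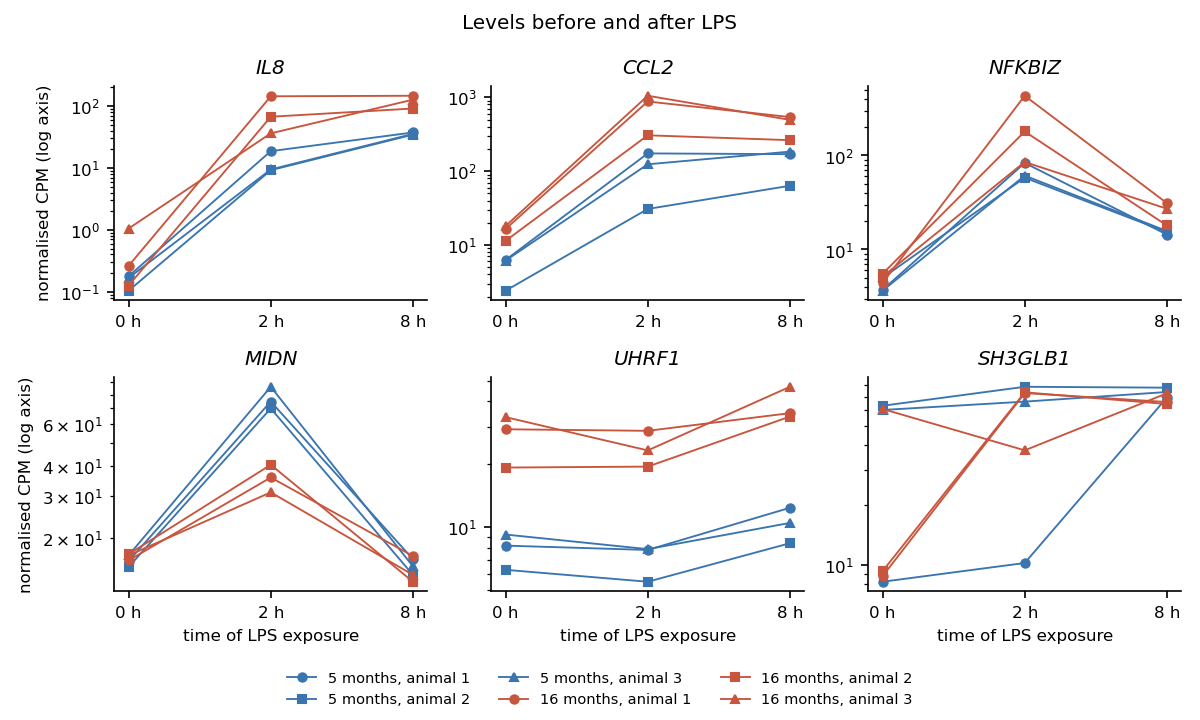
CPM scaled over all 18 libraries (y axes, log scale, each with its own range) of 6 genes at 0, 2 and 8 h of LPS (x axes), with a line for each animal and age. IL8, CCL2 and NFKBIZ were higher at 16 than at 5 months at 2 h in each animal, MIDN peaked at 2 h with the 5-month cultures on top, UHRF1 differed by age at all times and SH3GLB1 was low in some libraries of both ages.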

How the data were processed

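RNA was sequenced as single-end reads from poly(A)-selected libraries of cultured fibroblasts. The authors filtered reads by quality, aligned them to the UMD 3.1 cattle assembly with NextGENe 2.3.4 and deposited raw read counts per window, 1 file for each of 18 libraries. Windows with a gene name were used. A window spans a gene with its introns, and counts over all windows came to 1.55 to 1.76 per matched read at 2 h. Whether reads were counted in several windows or at several positions is not given in the sources used here. The use of read strand is likewise not given, so values of genes in overlapping windows are uncertain. Groups and animals came from the labels.

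Counts were tested with edgeR 4.0.16 (quasi-likelihood test, two-sided, TMM factors) in R 4.3.3, with genes at a CPM of at least 1 in 3 of 6 libraries (2 of 4 without animal 3). The animal was the block, since the labels tie both ages to the same animals. The correlation of the deviations of same-numbered libraries from their group means was 0.0667, 0.238 and -0.0113 for animals 1, 2 and 3, and -0.183 to 0.170 between libraries of different animals. Library weights came from limma 3.58.1 (voom with quality weights). Interactions had a term for each culture. SE is the log2 fold change divided by the square root of F. P-values cover the cultures of these animals only, with 1 culture for each animal and age, and use a spread estimated in part over all genes. Likelihood-ratio tests, DESeq2 1.42.0, other scalings, filters and libraries left out were tried as alternatives. The tests were checked on simulated counts with known changes.

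The comparison, its gene lists and the rule for named genes were chosen with earlier results of these data known. The rule took the genes of the study's RT-PCR and of DNA methylation, the 8 largest rises and falls among genes called without animal 3 that moved the same way in 3 animals at a mean CPM above 1, the called members of each list with up to 4 others of smallest p, the genes farthest off in the 16-month library of animal 3, and the 3 smallest interaction p-values. Of these, the text describes a part. Lists of melanocyte and Schwann cell genes (17.5 to 20.6 CPM in sum) and adipocyte genes (12.6 to 35.6) did not lie apart between the ages. A search of promoters for motifs was not run. Gene names are those of the deposited counts. MIRA-Seq data were not analysed here.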

Additional observations from a re-analysis of the deposited data

Results flagged for a closer look

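For SH3GLB1, the age difference at 2 h differed from that at 0 h in animals 1 and 2, by 2.71 on the log2 scale (edgeR's quasi-likelihood test with the culture as block, adjusted p = 0.000526). The value rests on the 2 h library of animal 1 at 5 months and the 0 h libraries of animals 1 and 2 at 16 months, which were near the low level of 8.21 CPM seen at 0 h in animal 1 at 5 months. At 8 h all 6 cultures were between 64.3 and 77.7 CPM. Without the block, the difference was 2.70 with an adjusted p of 1.00 after rounding.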

How the results depend on the processing

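The number of calls depended on the test, the block and the animals included. Over all 3 animals, 0 genes were called by edgeR's quasi-likelihood test, but 162 higher and 56 lower by the likelihood-ratio test, 162 and 62 by DESeq2, 388 and 179 when all 18 libraries shared a fit, 136 and 43 when this library alone was left out without a block (an alternative chosen after seeing the data), and 20 to 300 higher and 6 to 88 lower when each animal was left out in turn. Without animal 3 the 388 calls became 603 by the likelihood-ratio test, 711 without a fold minimum and 0 without the replicate block (1706 genes at an unadjusted p under 0.05), while DESeq2 gave 522, voom 434 and library-size scaling 533. That scaling moved the median of all genes by 0.13 and the higher calls from 300 to 450. Leaving out either remaining animal left no residual degrees of freedom. The 575 calls with library weights became 371 with a CPM of at least 1 in every library, 1443 without a fold minimum, and 43 to 434 when an animal was left out. Interaction calls with all animals numbered 7 by the likelihood-ratio test, 14 by DESeq2 and 0 to 1 when an animal was left out. Without animal 3 they numbered 63 by the likelihood-ratio test, 2 with a CPM of at least 1 in every library and 0 without the replicate block. Over all 3 animals NR4A2 ran from -0.36 to 1.13 on the log2 scale as each animal was left out. LY96 turned to -0.020 with upper-quartile factors and -0.00939 with 17 libraries in a fit. The cause was not tested for these changes. For SAA3, with 1 read in all at 5 months, the fold is known only within its counting interval.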
